A study of Mus musculus with 12 samples.

Results

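The type 2 cytokines and the GATA3 axis were followed through 12 RNA-seq libraries of mouse regulatory T cells (Tregs) with and without a working Foxp3 gene. The 9 genes were taken from the count table by symbol: the cytokine genes Il4, Il5, Il13, Il3, Csf2 and Il24, the transcription factor genes Gata3 and Stat6, and the nuclear receptor gene Pparg. They are 9 of the 55011 genes in the table, and 7 of them passed a filter on low counts that left 13295 genes for testing. Il3 and Il24 did not pass it. Il4, Il5, Il13 and Csf2 passed it only through the libraries without working Foxp3, so a count of cytokine genes that passed the test carries little beyond the values themselves.

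The 4 groups had 3 libraries each, all from 21-day-old male C57BL/6 mice. The WT groups, 1 from spleen and 1 from lung, carried the Foxp3.ires.GFP allele, which leaves Foxp3 in place and marks the cells that transcribe it with green fluorescent protein. The spleen ∆Foxp3 group carried ∆Foxp3.EGFP.iCre X R26.YFP according to its genotype label, whereas the lung ∆Foxp3 group carried ∆Foxp3.ires.GFP. The extraction protocol names only ∆Foxp3.ires.GFP for both tissues. The sources thus differ on the spleen allele, and a difference between the tissues within ∆Foxp3 cannot be told apart from a difference between alleles. Each library came from 1000 cells sorted in a double pass as live TCRβ+ CD4+ GFP+ CD25+ cells and made with Smart-seq2, a protocol that amplifies cDNA from few cells. The spleen was dissociated mechanically, while the lung was perfused, digested with enzymes and enriched for CD4+ cells by magnetic depletion of other cells. Nothing in the labels ties the 3 libraries of a group to separate mice, and p-values therefore reflect only the spread among these libraries, possibly technical.

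Interleukin-4 and interleukin-13 signal through receptors that share the IL-4 receptor alpha chain and activate STAT6, a transcription factor that in helper T cells induces GATA3. GATA3 in turn binds the gene cluster that holds Il4, Il13 and Il5 and is required for T helper 2 identity. GATA3 and PPARγ are also made by Tregs of non-lymphoid tissues, and Tregs with Foxp3 normally keep the type 2 cytokine genes silent. In bulk libraries such as these, more cells that make a transcript and more transcript per cell cannot be told apart.

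Library totals ran from 3958892 to 9025150 counts. Levels are in CPM, which scales the counts of every library to the same sum, with TMM factors that correct for library composition. Foxp3, the gene altered in the ∆Foxp3 mice, read 991 to 1096 CPM in spleen WT against 114 to 227 CPM in spleen ∆Foxp3. The lung range was 1328 to 1418 CPM for WT and 189 to 469 CPM for ∆Foxp3. Transcript was therefore lower in every ∆Foxp3 library than in any WT library, and present in all of them. The T cell genes Cd3e (663 to 927 CPM) and Cd4 (604 to 917 CPM) were high in all 12 libraries, whereas Cd8a stayed between 0 and 18.8 CPM. Earlier work on these data described spleen WT 1, lung WT 1 and lung ∆Foxp3 3 as libraries that stand apart, and results are given without them where that matters.

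The type 2 cytokine genes were silent or nearly so at this depth in the WT libraries of both tissues. Il4, Il5 and Il13 were found in every ∆Foxp3 library of both, whereas Il3, Csf2 and Il24 were each absent from at least 1. Over the 6 WT libraries, the 6 cytokine genes together had 1 count, for Csf2 in a lung library. In the 6 ∆Foxp3 libraries their summed level ran from 21.6 to 409 CPM. A total of 3 counts over a WT group would have read 0.142 CPM in spleen and 0.211 CPM in lung, which is the limit that a count of 0 allows, and folds against groups at 0 are therefore lower bounds computed against it. These limits cover counting error only, since the reads carry no molecular identifiers.

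Il4, Il13 and Il5 lie in 1 cluster on chromosome 11 (GRCm38), with Il4 and Il13 12.7 kb apart on the minus strand and Il5 a further 86.1 kb away on the plus strand, beyond Rad50. Their promoter windows are shown because GATA3 and STAT6, both among the genes followed here, are the factors that this cluster is known for. The windows, from RefSeq (GRCm38.p6), run from 250 bases before to 50 bases after the start of transcription, written 5′ to 3′ on the gene's strand at chr11:53618616-53618915 for Il4, chr11:53634653-53634952 for Il13 and chr11:53720544-53720843 for Il5. Capitals mark matches on either strand to the GATA words AGATAA and TGATAA, with A or G as the last base, and to the STAT6 word TTCNNNNGAA.

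Il4: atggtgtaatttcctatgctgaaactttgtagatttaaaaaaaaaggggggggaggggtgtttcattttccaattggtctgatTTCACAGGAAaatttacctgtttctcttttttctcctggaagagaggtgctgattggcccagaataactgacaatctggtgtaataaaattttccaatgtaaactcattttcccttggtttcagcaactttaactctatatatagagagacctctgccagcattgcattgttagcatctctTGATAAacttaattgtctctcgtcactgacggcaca

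Il13: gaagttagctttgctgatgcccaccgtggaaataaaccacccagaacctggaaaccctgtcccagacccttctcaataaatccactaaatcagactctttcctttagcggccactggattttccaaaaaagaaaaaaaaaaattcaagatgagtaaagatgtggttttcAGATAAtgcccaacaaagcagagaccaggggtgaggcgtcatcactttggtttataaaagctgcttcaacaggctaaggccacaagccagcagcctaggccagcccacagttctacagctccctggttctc

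Il5: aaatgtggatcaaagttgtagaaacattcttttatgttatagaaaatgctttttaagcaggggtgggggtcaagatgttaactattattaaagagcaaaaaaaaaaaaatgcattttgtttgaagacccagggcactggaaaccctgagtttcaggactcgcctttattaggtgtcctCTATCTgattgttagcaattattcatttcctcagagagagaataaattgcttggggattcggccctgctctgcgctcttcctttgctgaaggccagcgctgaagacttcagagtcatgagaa

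Each of the 3 windows held 1 GATA word, whose first base lay at position 15 for Il4, −81 for Il13 and −72 for Il5 relative to the start of transcription, which is position 1. The STAT6 word was in the Il4 window at −167 and in neither of the others. The windows of Il3 and Csf2 also held 1 GATA word each, at −101 and −247, and that of Il3 held the STAT6 word at −6. A second Il4 window, at another start of transcription, held a GATA word at −80 and no STAT6 word. Among 32544 promoter windows of 300 bases in the same table, 29.6% held a GATA word and 6.98% the STAT6 word, so a match is a description and not a site.

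Il4, the signature cytokine of T helper 2 cells, had 0 counts in all 6 WT libraries. It read 19, 110 and 34.3 CPM in spleen ∆Foxp3 libraries 1, 2 and 3, and 154, 95.2 and 126 CPM in the 3 lung ∆Foxp3 libraries. Every ∆Foxp3 library was thus above every WT library, and within spleen ∆Foxp3 the second library stood well above the other two. Il4 was at least 351-fold higher in spleen ∆Foxp3 than in spleen WT (edgeR quasi-likelihood test with Benjamini-Hochberg adjustment over all tested genes, adjusted p = 0.000515). In lung it was at least 585-fold higher (adjusted p = 0.000611, edgeR). Both calls held in all 21 alternative settings.

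Il5, the growth and survival factor of eosinophils, had no count in WT. It read 1.31, 52.3 and 8.75 CPM in spleen ∆Foxp3 and 64.6, 52.1 and 229 CPM in lung ∆Foxp3. The spleen values spread 39.8-fold from lowest to highest and the lung values 4.4-fold, while neither group overlapped WT. Il5 rose at least 127-fold in spleen (edgeR adjusted p = 0.0413) and at least 536-fold in lung (adjusted p = 0.0227). The spleen call was lost in 12 of 20 alternatives. The adjusted p was 0.329 in limma, 0.266 with edgeR without the low-count filter and 0.0772 without the 3 libraries that stand apart. Removing any of spleen WT 1, 2 or 3 gave an adjusted p of 0.137, 0.079 and 0.103, and removing spleen ∆Foxp3 2 or 3 gave 0.0681 and 0.102. Removing lung WT 1, lung ∆Foxp3 1 or lung ∆Foxp3 2 from the shared fit gave 0.0554, 0.0806 and 0.0727. The lung call was lost in 7 of 21 alternatives, among them the removal of lung WT 1 (0.0692), lung WT 3 (0.0566), lung ∆Foxp3 1 (0.0537), lung ∆Foxp3 2 (0.0575) and spleen ∆Foxp3 3 (0.0644). The others were no low-count filter (0.183) and the removal of the 3 libraries that stand apart (0.0906).

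Il13, which acts on epithelium and smooth muscle through the receptor chain it shares with IL-4, was also at 0 in WT. It read 1.09, 24.5 and 1.15 CPM in spleen ∆Foxp3 and 18.5, 23 and 45.6 CPM in lung ∆Foxp3. Spleen library 2 was at the level of the lung libraries, and the other two spleen libraries were near 1 CPM. Il13 rose at least 51.4-fold in spleen (edgeR adjusted p = 0.0193) and at least 137-fold in lung (adjusted p = 0.0133). The spleen call was lost in 5 of 20 alternatives: without spleen WT 1 (0.0868), WT 2 (0.0521) or WT 3 (0.06), without the low-count filter (0.0524) and without the 3 libraries that stand apart (0.074). The lung call was lost in 1 of 21, without those 3 libraries (0.0902).

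Il3, which drives growth of basophils and mast cells, was found mainly in 1 library. In spleen ∆Foxp3 it read 0, 44.1 and 0 CPM, with all 184 counts of the group in library 2. In lung ∆Foxp3 it read 0.692, 1.59 and 4.69 CPM from 3, 8 and 21 counts, and WT libraries had none. The lung groups did not overlap, and the spleen groups did. Il3 read at least 82.2-fold higher in spleen ∆Foxp3 over the pooled group and at least 10.9-fold higher in lung. Tested without the low-count filter, it did not pass in either tissue (edgeR adjusted p = 0.443 in spleen and 0.617 in lung, over 39152 genes).

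Csf2, which encodes the myeloid growth factor GM-CSF and lies 15.6 kb from Il3, had few counts throughout. In spleen ∆Foxp3 it read 0.219, 4.55 and 0 CPM, from 1, 19 and 0 counts. In lung ∆Foxp3 it read 3.46, 1.19 and 3.13 CPM, from 15, 6 and 14 counts. The lung groups did not overlap, whereas the spleen groups did. In spleen the pooled level was at least 8.93-fold higher (edgeR adjusted p = 0.0404), but the call rested on library 2, since without it 1 count remained and the adjusted p was 0.441. It was also lost when any of the WT spleen libraries was removed (0.0814 to 0.0861) or any of lung WT 2, lung WT 3, lung ∆Foxp3 1, 2 or 3 (0.0503 to 0.0591). The spleen adjusted p was 0.228 in limma and 0.113 with edgeR without the 3 libraries that stand apart. In lung the pooled ratio was 35.8 (exact 95% interval for counting error, 6.03 to 1456) and did not pass with edgeR (adjusted p = 0.0729), while DESeq2 gave 0.0451, limma 0.0124, and removal of spleen ∆Foxp3 2 or 3 gave 0.0399 and 0.0431.

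Il24, a cytokine of the IL-10 family made by T helper 2 cells in mouse, lies apart from the others on chromosome 1. It had 2, 0 and 1 counts in lung ∆Foxp3 and none elsewhere, at the limit of 3 counts, so no fold is given (edgeR without the low-count filter, adjusted p = 0.551 in lung).

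**Figure D1:**
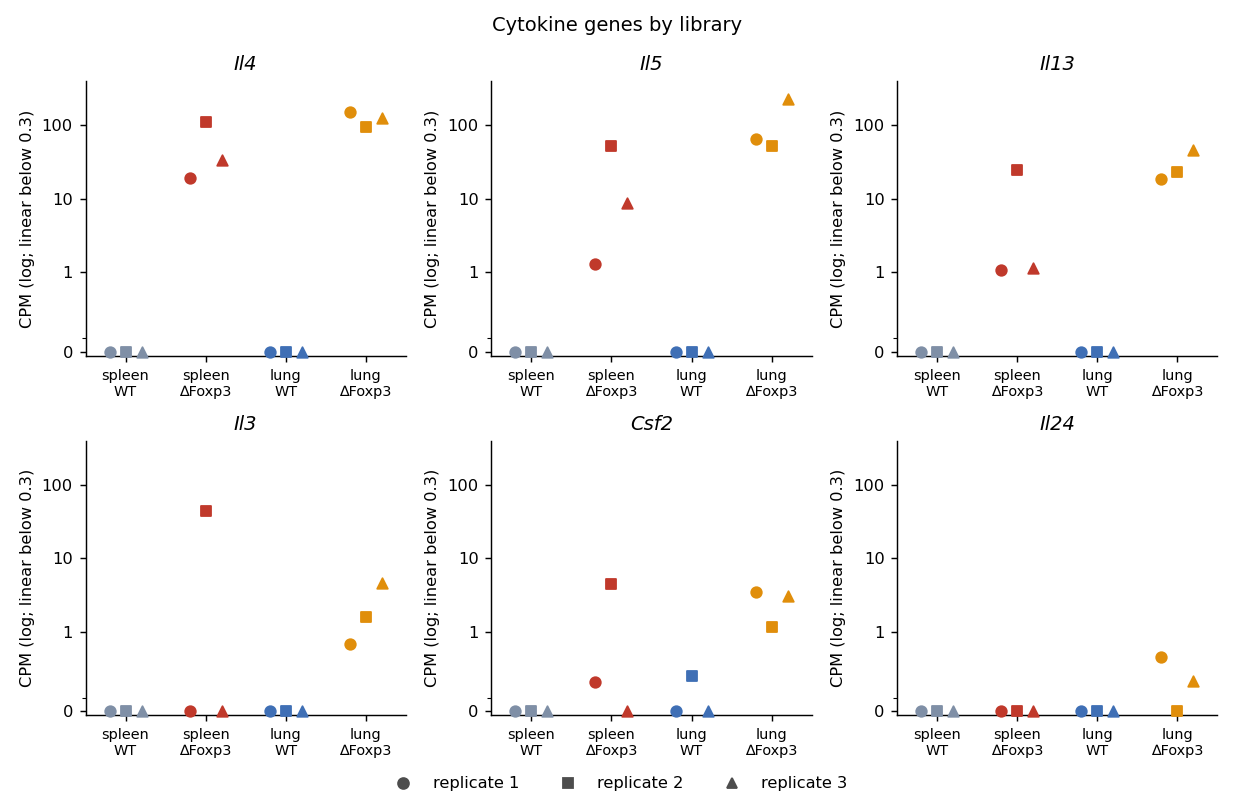
Levels of the cytokine genes in each of the 12 libraries, in TMM-scaled CPM on a log axis that turns linear near 0, by group; each point is a library and its shape the replicate number. WT libraries lie at 0 apart from 1 count of Csf2, lung ∆Foxp3 libraries carry Il4 at 95.2 to 154 CPM, and spleen ∆Foxp3 library 2 lies above the other two spleen ∆Foxp3 libraries for Il4, Il5, Il13, Il3 and Csf2.

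The cytokine genes varied together within spleen ∆Foxp3. Library 2 held 67.4% of the group's summed CPM of Il4, 83.9% of that of Il5, 91.6% of that of Il13, 100% of that of Il3 and 95.4% of that of Csf2. Without this library the lower bounds in spleen were 198-fold for Il4, 40.7-fold for Il5 and 7.9-fold for Il13, with no bound left for Il3 and Csf2. The same library was also the highest of its group for other secreted factors, of which Ccl1 and Xcl1 were chosen after their values were seen. Ccl1, a ligand of CCR8, read 33.4, 208 and 3.73 CPM, and Xcl1, a chemokine of activated T cells, read 8.52, 80.3 and 0.717 CPM. Il21, the cytokine of follicular helper T cells, read 13.6, 48.7 and 1.58 CPM. Its summed mast cell and basophil markers (34.5 CPM) lay between those of the other two (25.8 and 42.3 CPM).

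The makeup of the cytokine output also differed between libraries. On a scale of CPM per kb of merged exon, Il5 stood at 0.0551, 0.378 and 0.204 of the Il4 level in the spleen ∆Foxp3 libraries and at 0.334, 0.437 and 1.45 in the lung libraries. Only lung library 3 had more Il5 than Il4 per kb. Il13 stood at 0.0585, 0.226 and 0.0341 of Il4 per kb in spleen and at 0.122, 0.246 and 0.368 in lung, where Il4 led Il13 in every library. Il3 reached 0.78 of Il4 per kb in spleen library 2, against at most 0.0726 in any lung library.

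Gata3 was transcribed in every WT library, and its levels were higher in ∆Foxp3 cells. Spleen WT libraries read 516, 351 and 401 CPM, and spleen ∆Foxp3 libraries read 440, 1059 and 722 CPM. In lung it read 538, 514 and 517 CPM in WT and 1075, 1051 and 1302 CPM in ∆Foxp3. The lung groups were clearly separate, while in spleen the lowest ∆Foxp3 library lay below the highest WT library. The log2 difference was 1.13 ± 0.24 (SE) in lung (n = 3 and 3 libraries, edgeR adjusted p = 0.00497) and 0.81 ± 0.24 in spleen (adjusted p = 0.0223). The lung call held in all 21 alternatives. The spleen call was lost without spleen ∆Foxp3 2 (log2 difference 0.46, adjusted p = 0.124), spleen WT 2 (0.0902) or spleen WT 3 (0.0697), in limma (0.109), and when only the spleen groups were fitted (0.0823). Spleen ∆Foxp3 library 2 thus held the highest Gata3 level of its group together with the highest cytokine levels.

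Stat6, the factor that IL-4 and IL-13 receptors activate, was at or below its WT level. Spleen WT libraries read 279, 369 and 345 CPM and spleen ∆Foxp3 libraries 270, 255 and 236 CPM. In lung it read 323, 391 and 345 CPM in WT and 266, 303 and 270 CPM in ∆Foxp3. All ∆Foxp3 libraries were below the WT libraries of their tissue, by narrow margins. The log2 differences of -0.38 ± 0.14 in spleen (edgeR adjusted p = 0.0544) and -0.33 ± 0.14 in lung (adjusted p = 0.107) did not pass. In spleen the adjusted p ran from 0.0143 in limma to 0.196 without spleen WT 2, and passed in 5 of 21 alternatives. The others that passed were without spleen WT 1 (0.0222), without the 3 libraries that stand apart (0.0361), with library totals (0.0347) and with a filter at 10 CPM (0.0351). In lung, limma (0.0148) and the fit of the lung groups alone (0.0372) passed. Stat6 overlaps Nab2 on the opposite strand, and since no source used here gives the strand setting of the counting, reads of the overlap cannot be told apart.

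Pparg, the nuclear receptor that binds fatty acid ligands, was low in WT and rose in both tissues. Its spleen levels were 3.34, 2.32 and 2.47 CPM in WT and 16.8, 32.1 and 35.9 CPM in ∆Foxp3. In lung it read 11.6, 6.74 and 3.16 CPM in WT and 70.6, 33.1 and 53.8 CPM in ∆Foxp3. No ∆Foxp3 library overlapped a WT library of its tissue. The log2 difference was 3.36 ± 0.46 in spleen (edgeR adjusted p = 0.000111) and 2.88 ± 0.44 in lung (adjusted p = 0.000467), and both calls held in all 21 alternatives. Unlike the cytokine genes, Pparg was highest in spleen ∆Foxp3 library 3 and not in library 2.

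**Figure D2:**
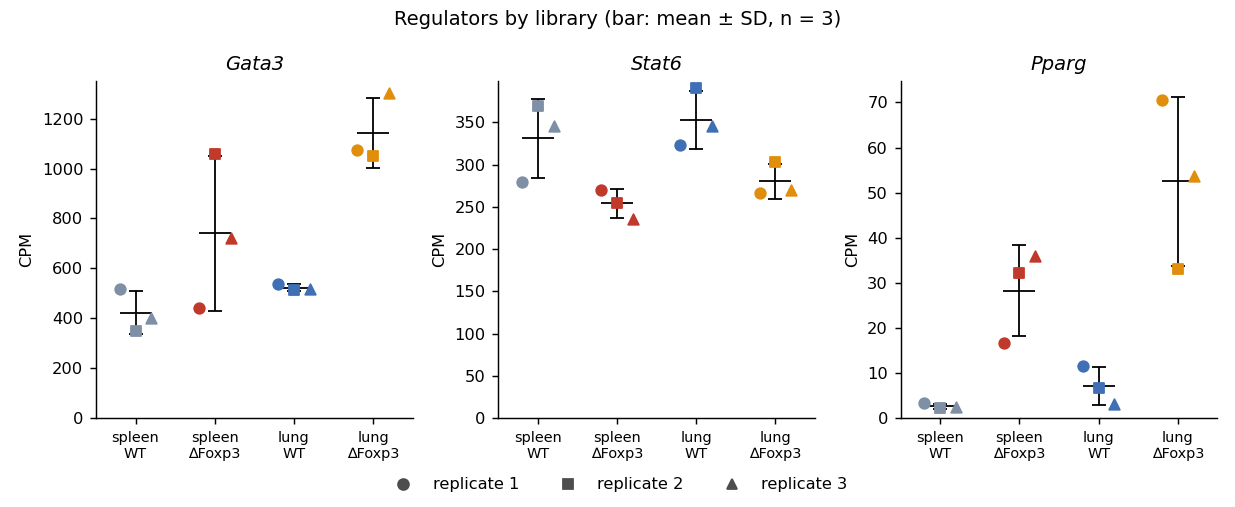
Levels of Gata3, Stat6 and Pparg in each of the 12 libraries, in TMM-scaled CPM, by group; points are libraries. Gata3 in lung ∆Foxp3 lies at 1051 to 1302 CPM above lung WT at 514 to 538 CPM, Stat6 is slightly lower in ∆Foxp3, and Pparg lies at 2.32 to 3.34 CPM in spleen WT and 16.8 to 35.9 CPM in spleen ∆Foxp3.

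Counted together, 6 of the 7 tested genes passed in spleen, all higher in ∆Foxp3, where 26.6% of all tested genes passed and 14.1% were higher. In lung 5 of 7 passed, all higher, against 20.2% of all tested genes and 9.74% higher. DESeq2 called 6 in spleen and 6 in lung, and limma called 4 in spleen and 7 in lung, with Stat6 lower in each. The WT and ∆Foxp3 libraries did not overlap for 5 of the 7 genes in spleen, against 38.2% of all tested genes, and for 7 of 7 in lung, against 45.3%. The number called in spleen fell to 2 when only the spleen groups were fitted. These counts include Il4, Il5, Il13 and Csf2, which passed the filter only through the ∆Foxp3 libraries. Their direction was largely set by that filter, so the counts carry little for them. Among Gata3, Stat6 and Pparg, edgeR called Gata3 and Pparg higher in both tissues and Stat6 in neither. The groups were separate for Stat6 and Pparg in both tissues and for Gata3 in lung only.

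Mean levels of Il4, Il5, Il13, Csf2, Gata3 and Pparg were highest in lung ∆Foxp3, then in spleen ∆Foxp3, then in the WT groups, whereas the mean of Il3 was higher in spleen ∆Foxp3 (14.7 CPM) than in lung ∆Foxp3 (2.32 CPM). Neighbours in that order did not always differ beyond their spread. Within ∆Foxp3, lung minus spleen gave log2 differences of 1.21 ± 0.57 for Il4 (edgeR adjusted p = 0.594), 2.50 ± 1.19 for Il5 (0.636), 1.73 ± 1.08 for Il13 (0.749), 0.76 ± 1.25 for Csf2 (0.946), 0.63 ± 0.24 for Gata3 (0.415) and 0.89 ± 0.40 for Pparg (0.516). None of the 7 passed with edgeR, where 0.722% of all genes did, 2 had an unadjusted p under 0.05 (Gata3 and Pparg), DESeq2 called 0, and limma called Il4 (0.0115), Il13 (0.0154) and Gata3 (0.0264). Gata3 also passed without the low-count filter (0.0195). Without spleen ∆Foxp3 library 2, edgeR called Il4 (2.22, adjusted p = 0.0131), Il13 (4.67, 0.011) and Gata3 (0.98, 0.0394) higher in lung.

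In WT, Gata3 (0.31 ± 0.24, edgeR adjusted p = 0.53) and Stat6 (0.09 ± 0.14, 0.777) did not pass between lung and spleen, and Pparg was 1.37 ± 0.47 higher on the log2 scale in lung without passing (0.121). With edgeR 0 of 3 genes passed, against 4.13% of all genes, and 1 had an unadjusted p under 0.05. Pparg did pass with DESeq2 (0.0439) and without the low-count filter (0.0136), and limma called 0. The genotype difference in lung minus that in spleen was 0.32 ± 0.34 for Gata3 (adjusted p = 0.877), 0.05 ± 0.20 for Stat6 (0.979) and -0.48 ± 0.61 for Pparg (0.908). None of the 3 passed with edgeR, DESeq2 or limma or at an unadjusted p under 0.05, against 0.925% of all genes called by edgeR. For Il4, Il5, Il13 and Csf2 this difference cannot be estimated, because their WT groups were at or under the limit of 3 counts.

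The genes around the chromosome 11 cluster were read next, because Il4, Il13 and Il5 share their neighbourhood with genes of other functions. Of 8 tested neighbours from the list, 3 rose and 1 fell in each tissue, with a median log2 difference of 0.65 in spleen and 0.97 in lung, against -0.02 and -0.01 over all tested genes, of which 26.6% and 20.2% were called. Rad50, a DNA break repair gene that lies between Il13 and Il5 and carries the locus control region of the cluster, rose in spleen from 33.8 ± 4.05 to 71.8 ± 1.31 CPM (mean ± SD, n = 3). The log2 difference was 1.09 ± 0.15 (edgeR adjusted p = 0.000151). In lung Rad50 rose from 35 ± 1.26 to 97.3 ± 4.07 CPM, by 1.48 ± 0.16 on the log2 scale (adjusted p = 3.0e-05).

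Kif3a, a motor protein gene of cilia whose end lies 1.0 kb from that of Il4, rose from 5.03 ± 1.91 to 28.1 ± 2.4 CPM in spleen (2.49 ± 0.41, edgeR adjusted p = 0.000443). In lung it rose from 10.6 ± 5.8 to 41.9 ± 7.47 CPM (1.99 ± 0.39, adjusted p = 0.0028). Unlike Il4, Rad50 and Kif3a were transcribed in every WT library. Slc22a5, a carnitine transporter gene beyond Il5, fell by 2.08 (log2) in spleen (adjusted p = 0.000528) and by 2.35 (log2) in lung (0.00041). The Rad50, Kif3a and Slc22a5 calls held in all 21 alternatives of each tissue.

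Pdlim4, between Slc22a5 and Csf2, rose in spleen (3.11 ± 0.76, edgeR adjusted p = 0.00794) and in lung (2.77 ± 0.78, 0.0233). Its lung call was lost without lung WT 1 (0.0852), lung WT 2 (0.0828), lung ∆Foxp3 1 (0.0692) or lung ∆Foxp3 2 (0.056). Irf1, an interferon response factor gene beside Il5, did not pass in spleen (-0.32, adjusted p = 0.136) or lung (0.27, 0.246). Aff4 and Uqcrq did not pass in either tissue. Septin8 did not pass either (edgeR adjusted p = 0.0549 in spleen and 0.16 in lung), but all its ∆Foxp3 libraries lay above the WT libraries of their tissue. It read 0, 9.47 and 10.3 CPM in spleen WT and 31.9, 23.7 and 45.3 CPM in spleen ∆Foxp3. The lung values were 3.66, 8.29 and 11.3 CPM in WT and 30.5, 27 and 22.3 CPM in ∆Foxp3. Septin8 passed in 4 of 21 alternatives in spleen and in 3 of 21 in lung. A wider window, chosen after the values were seen, ran along the forward strand from 300 kb before Il4 to 300 kb beyond Il3. Its 12 tested genes other than the cytokines and Septin8 gave 4 higher and 2 lower in spleen and 3 higher and 2 lower in lung. These stand beside the same 26.6% and 20.2% of all tested genes called. Whether reads running past the ends of these genes reached their neighbours was not tested.

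**Figure D3:**
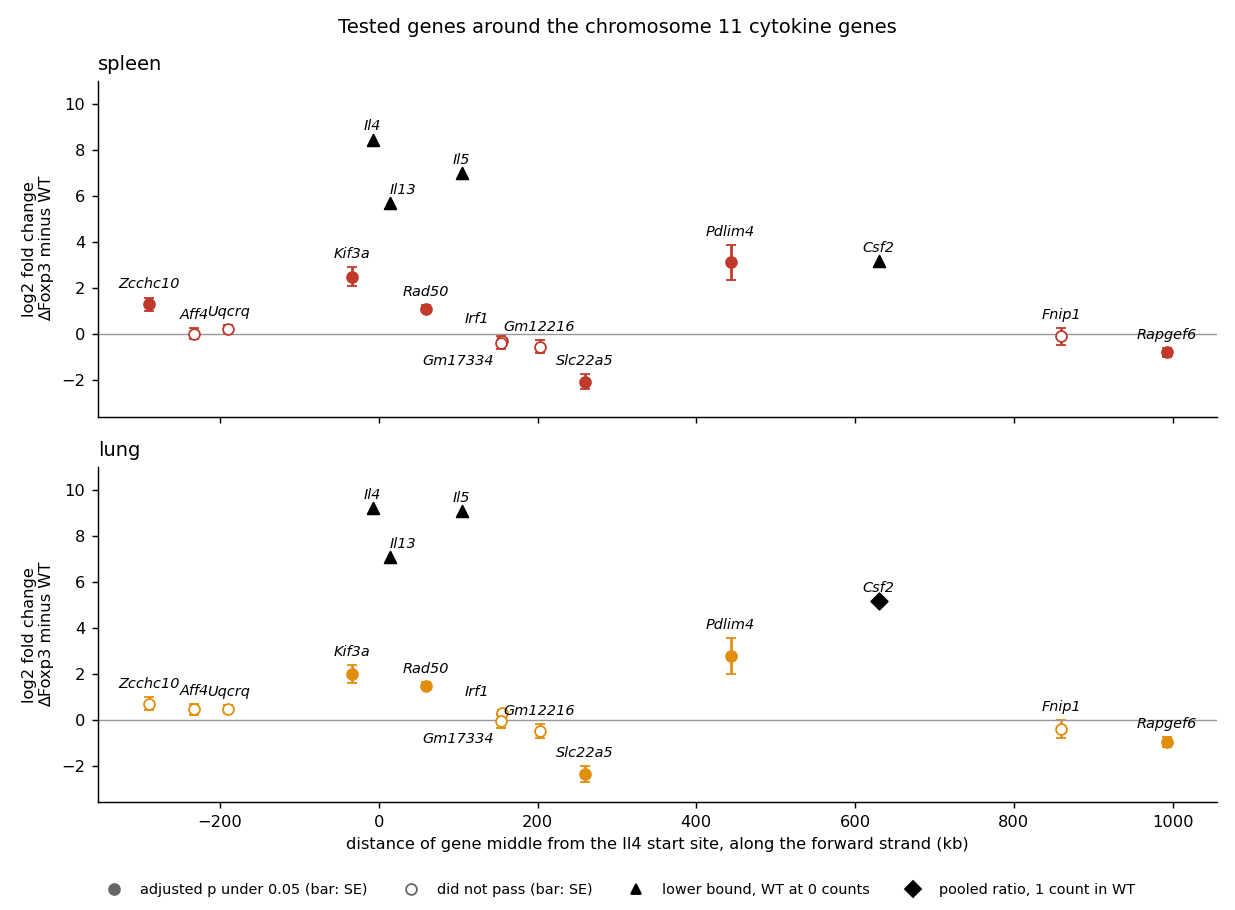
Genotype difference of each tested gene of the chromosome 11 cluster and its surroundings, apart from Septin8, against the distance of its middle from the start of Il4 in kb, for spleen and lung. The vertical axis is the log2 difference ∆Foxp3 minus WT, with bars of SE and open points that did not pass. Cytokine genes are in black at their lower bounds or, for Csf2 in lung, at the pooled ratio. Rad50 and Kif3a, beside Il4, Il13 and Il5, were higher in both tissues, and Slc22a5 was lower in both.

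Next to Il24 on chromosome 1, Il10 was the neighbour that rose in both tissues. Il10, an anti-inflammatory cytokine that Tregs also make, went from 11.8 to 56.4 CPM in spleen (2.25 ± 0.57, edgeR adjusted p = 0.0125) and from 9.07 to 148 CPM in lung (4.02 ± 0.62, 0.00096). The spleen call was lost without spleen ∆Foxp3 2 (0.0524), spleen WT 2 (0.0517) or the low-count filter (0.107), and in limma (0.0796). Of the 4 tested neighbours, 1 rose in spleen, and 3 rose and 1 fell in lung, against 26.6% and 20.2% of all tested genes called.

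Of 7 tested receptor genes for these cytokines, 2 rose and 1 fell in spleen, and 1 fell in lung (medians 0.40 and -0.47), against 26.6% and 20.2% of all tested genes called. Csf2rb, the chain shared by the IL-3, IL-5 and GM-CSF receptors, rose in spleen from few counts (pooled ratio 25.9, exact 95% interval 8.44 to 129, edgeR adjusted p = 0.0367), as did Il20rb, a receptor chain for IL-24 (2.04 ± 0.71, 0.0455). These 2 calls were lost in 8 of 19 and 13 of 20 alternatives, with an adjusted p of up to 0.155 for Csf2rb without spleen ∆Foxp3 1 and up to 0.304 for Il20rb without spleen ∆Foxp3 3. Il4ra, the chain that binds IL-4 and also serves IL-13, read 379, 459 and 445 CPM in spleen WT and 243, 242 and 267 CPM in spleen ∆Foxp3, without overlap. It fell by 0.77 (log2, SE 0.18) in spleen (edgeR adjusted p = 0.00647) and by 0.67 (SE 0.18) in lung (0.019). The lung call was lost in 5 of 21 alternatives. Leaving out lung WT 1, lung ∆Foxp3 3 and spleen WT 1 together gave the highest adjusted p (0.241), with a log2 difference of -0.31. It was also lost when lung WT 1 (0.116), lung WT 2 (0.0651), lung ∆Foxp3 2 (0.0554) or lung ∆Foxp3 3 (0.113) was removed alone. Il5ra, the receptor chain of IL-5, had 1 count in each of 2 libraries and none in the others.

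Among 11 tested genes of IL-4 receptor signalling, 3 rose and 1 fell in spleen, and 1 rose and 1 fell in lung (medians -0.13 and 0.13), against 26.6% and 20.2% of all tested genes called. Jak3, the kinase of the common gamma chain, rose in spleen from 255 to 371 CPM (0.54 ± 0.12, edgeR adjusted p = 0.00501), as did Ptpn11, the phosphatase SHP2 (1.24 ± 0.31, 0.00769). Both calls held in all 21 alternatives. Jak2 rose in both tissues (0.69 ± 0.21, adjusted p = 0.0263 in spleen, 0.82 ± 0.21, 0.0142 in lung). Its spleen call was lost without spleen WT 1 (0.0614), spleen ∆Foxp3 3 (0.0642) or the 3 libraries that stand apart (0.0649), and in limma (0.0727). Its lung call was lost without lung WT 3 (0.0514). Socs3, a feedback inhibitor of cytokine signalling, fell by 0.76 (log2, SE 0.26) in spleen (0.0443), a call lost in 9 of 21 alternatives, up to 0.147 without spleen ∆Foxp3 1. Jak1, a kinase of the IL-4 receptor, fell by 0.64 (log2, SE 0.15) in lung (0.00897), which was lost without lung WT 1 (0.0562), lung ∆Foxp3 2 (0.0542) or the 3 libraries that stand apart (0.0609).

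Of 22 tested transcription factors that are known to act on Il4 or Gata3, 7 rose and 2 fell in spleen, and 5 rose and 2 fell in lung (medians 0.18 and 0.28). Over all tested genes, 14.1% were called higher in spleen and 9.74% in lung. Maf, which activates Il4 in helper T cells, rose from 63.7 to 220 CPM in spleen (1.79 ± 0.19, edgeR adjusted p = 1.3e-05) and from 94.9 to 190 CPM in lung (1.00 ± 0.18, 0.00175). Rbpj, the DNA-binding partner of Notch, rose by 2.26 ± 0.23 in spleen (1.2e-05) and 3.38 ± 0.25 in lung (1.7e-06). Bhlhe40, which sustains cytokine output in T cells, read 64.2, 14.5 and 17.9 CPM in spleen WT and 289, 376 and 322 CPM in spleen ∆Foxp3, and rose in lung by 4.61 ± 0.70 (adjusted p = 0.0014). Stat5b, a factor downstream of IL-2, fell by 1.35 on the log2 scale in lung (SE 0.19, 0.000294). The Maf, Rbpj and lung Bhlhe40 and Stat5b calls held in all 21 alternatives.

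Of 13 tested genes for type 2 surface receptors and lipid mediators, 6 rose and 1 fell in spleen, and 7 rose and 2 fell in lung (medians 0.70 and 0.76), where 26.6% and 20.2% of all tested genes were called. Il1rl1, the IL-33 receptor, rose from 24 to 110 CPM in spleen (2.19 ± 0.32, edgeR adjusted p = 0.000245) and from 87.3 to 319 CPM in lung (1.87 ± 0.31, 0.00109). Cysltr1, a cysteinyl leukotriene receptor, read 3.56, 1.43 and 1.85 CPM in spleen WT and 33.7, 106 and 104 CPM in spleen ∆Foxp3, a rise of 5.08 ± 0.48 on the log2 scale (8.3e-06). In lung Cysltr1 rose by 3.59 ± 0.44 (0.000107). Ptgir, the prostacyclin receptor, rose in both tissues (1.50 ± 0.33, 0.00396 in spleen, 2.06 ± 0.34, 0.000863 in lung). Ccr4, a chemokine receptor of both T helper 2 cells and Tregs, fell by 1.50 in lung (0.000812).

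Of 18 tested PPARγ partners and targets, 7 rose in spleen, and 7 rose and 2 fell in lung (medians 1.08 and 0.39), against 26.6% and 20.2% of all tested genes called. Rxra, which encodes the retinoid receptor that pairs with PPARγ on DNA, rose from 11.2 to 77 CPM in spleen (2.76 ± 0.41, edgeR adjusted p = 0.000252). Its mean was 21.4 CPM in lung WT and 93.1 CPM in lung ∆Foxp3. Fabp5, a fatty acid carrier, rose by 2.28 ± 0.39 in spleen (0.000588). Hilpda and Plin2, both coats or regulators of lipid droplets, rose in lung from 42.3 to 368 CPM (3.12 ± 0.25, 2.5e-06) and from 49.7 to 207 CPM (2.06 ± 0.27, 0.000154). The 2 that fell in lung, named after their values were seen, were Abcg1, a cholesterol exporter gene (-1.14 ± 0.35, 0.0379), and Cd36, a fatty acid uptake gene (-3.44 ± 1.13, 0.0486), both known PPARγ targets. Genes of this list also respond to other factors.

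**Figure D4:**
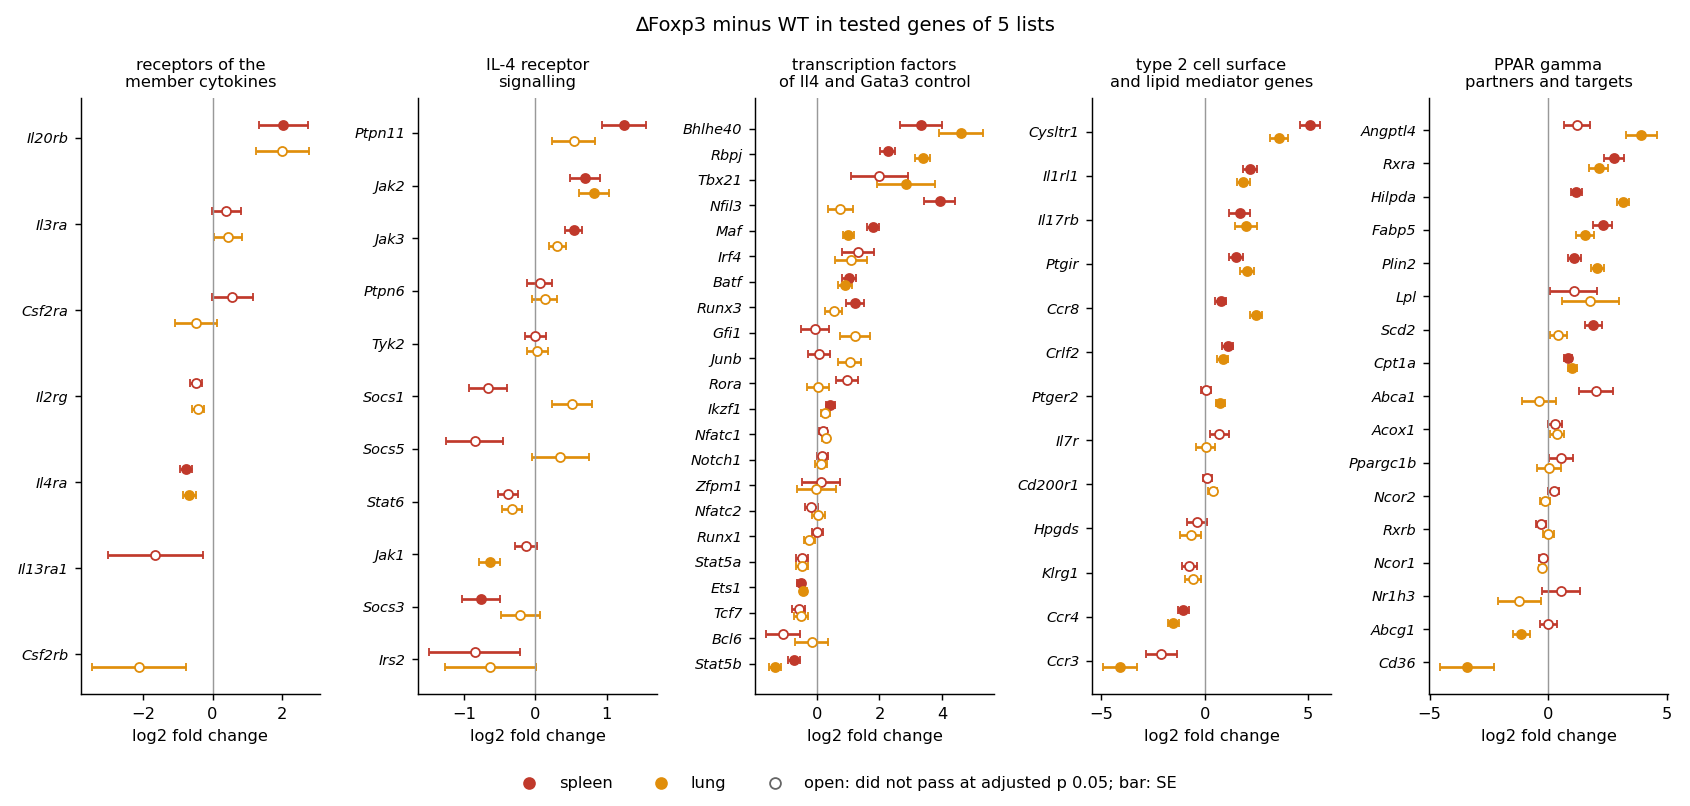
Log2 differences ∆Foxp3 minus WT in spleen and lung for the tested genes of the receptor, signalling, transcription factor, surface and PPARγ lists that have a fitted value; bars are SE, and open points did not pass. Il4ra lies below 0 in both tissues, whereas Maf, Rbpj, Il1rl1 and Cysltr1 lie above 0 in both.

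Type 2 cytokine genes were not the only cytokine genes that were higher. Of 12 tested genes for other T cell cytokines and chemokines, 7 rose and 2 fell in spleen, and 8 rose in lung, where 26.6% and 20.2% of all tested genes were called. The medians were 2.97 and 3.84, the latter 3.80 with genes at 0 in WT set at their lower bound. Lif, an IL-6 family cytokine, rose in both tissues (3.30 ± 0.67, edgeR adjusted p = 0.00249 in spleen, 6.21 ± 0.85, 0.000275 in lung). Ifng, the signature cytokine of type 1 cells, rose in lung from 2.56 to 44.6 CPM (4.07 ± 0.71, 0.00137). Lta, the lymphotoxin gene, fell by 2.21 (log2) in spleen (0.00124). Il9, another type 2 cytokine gene, had no count in any of the 12 libraries.

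Markers of other cells that make or use these genes were summed in each library. The summed level of 12 mast cell and basophil markers ran from 7.68 to 18.8 CPM in spleen WT and from 25.8 to 42.3 CPM in spleen ∆Foxp3, and from 7 to 17.9 CPM in lung WT and 29.9 to 65.1 CPM in lung ∆Foxp3. The most abundant in ∆Foxp3 was Hdc, the histidine decarboxylase gene, which rose in both tissues (edgeR adjusted p = 0.00545 in spleen and 0.033 in lung). The lung call of Hdc was lost without lung WT 2 (0.112), lung WT 3 (0.103), lung ∆Foxp3 1 (0.0716) or lung ∆Foxp3 3 (0.102). Kit, the stem cell factor receptor that ILC2 also express, rose in lung (edgeR adjusted p = 0.0171), a call lost without lung WT 2 (0.074) or lung WT 3 (0.0651). Fcer1a, the IgE receptor chain, had 0 counts over spleen ∆Foxp3 and 1 over lung ∆Foxp3, Cpa3 had 0 to 2 counts in any ∆Foxp3 library, and Mcpt8 had 0 to 5. The part of such cells in the cytokine results was not tested. Of the 12 markers, 5 were at 0 in spleen ∆Foxp3 and 4 in lung ∆Foxp3. Of the 2 tested, 1 rose in spleen and 2 in lung, where 14.1% and 9.74% of all tested genes were called higher. The 7 eosinophil markers summed to 10.6 to 66.4 CPM in spleen WT, 8.15 to 16.2 CPM in spleen ∆Foxp3, 51.3 to 83.2 CPM in lung WT and 2.68 to 9 CPM in lung ∆Foxp3, led by Ccr3, with Prg2 and Ear6 at 0 throughout and 1 of 2 tested markers lower in lung.

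The 11 markers of group 2 innate lymphoid cells (ILC2), another source of Il5 and Il13, summed to 212 to 445 CPM in spleen WT and 313 to 671 CPM in spleen ∆Foxp3. The lung sums were 412 to 528 CPM for WT and 1136 to 1373 CPM for ∆Foxp3. Of 10 tested, 5 rose in spleen and 8 in lung, where 14.1% and 9.74% of all tested genes were called higher. Among them were Il1rl1, Arg1, Nmur1 and Ptpn13. Tregs of tissues also express some of the 11 markers, such as Il1rl1, Klrg1 and Areg. Calca, also among the 8, read 1.29, 0 and 0 CPM in lung WT and 34.4, 12.5 and 21.4 CPM in lung ∆Foxp3, and was at 0 in spleen in both genotypes. The gate required TCRβ, which ILC2 lack, and the part of such cells in the cytokine results was not tested.

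For Pparg, the alveolar macrophage is another cell of lung that is rich in transcript. Its 11 markers summed to 20.7, 18.7 and 15.3 CPM in lung WT libraries 1, 2 and 3, the same order as Pparg there, and to 0.991 to 4.02 CPM in lung ∆Foxp3, where Pparg was higher. The order in lung WT came from different markers, so it says little about the cell. Chil3 read 14.4, 0.518 and 1.58 CPM in these libraries, and Atp6v0d2 read 3.01, 15.8 and 7.21 CPM. In spleen the sums were 7.68 to 18.8 CPM in WT and 85.2, 15.3 and 40.8 CPM in ∆Foxp3 libraries 1, 2 and 3, and the library with the highest sum had the lowest Pparg of its group. Of 4 tested, 1 rose and 1 fell in spleen and 1 fell in lung, against 26.6% and 20.2% of all tested genes called. The part of macrophage transcript in the Pparg levels was not tested. The 10 general myeloid markers summed to 360 to 510 CPM in spleen WT, 256 to 482 CPM in spleen ∆Foxp3, 261 to 530 CPM in lung WT and 162 to 237 CPM in lung ∆Foxp3, with 1 of 9 tested higher and 1 lower in spleen and 1 lower in lung. Ctss led these sums in every group, at 423, 337 and 334 CPM in spleen WT and 253, 219 and 201 CPM in spleen ∆Foxp3. The sums therefore mostly follow Ctss, whereas the median log2 difference of the tested markers was 0.82 in spleen and -2.80 in lung. Csf1r, for instance, read 28.6, 27.2 and 9.1 CPM in spleen WT and 110, 13.2 and 49.9 CPM in spleen ∆Foxp3.

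The 9 markers of NKT and γδ T cells, which can make IL-4, summed to 52.2 to 60.2 CPM in spleen WT and 86.3 to 123 CPM in spleen ∆Foxp3, and to 29.5 to 33.4 CPM in lung WT and 85.8 to 144 CPM in lung ∆Foxp3. Trgc2, a γ chain constant gene, led in ∆Foxp3. Of 6 tested markers, 1 rose in spleen and 2 in lung, where 14.1% and 9.74% of all tested genes were called higher. Trdc, the δ chain constant gene, named after its values were seen, went the other way in lung. It read 6.46, 3.11 and 9.14 CPM in lung WT and 2.54, 1.78 and 1.56 CPM in lung ∆Foxp3, and the spleen groups overlapped. No marker of this list was called lower in either tissue. The part of NKT and γδ T cells in the cytokine results was not tested. The 10 T cell and Treg markers, which include Foxp3, summed to 6158 to 6864 CPM in spleen WT and 3880 to 4326 CPM in spleen ∆Foxp3, and to 6538 to 6828 CPM in lung WT and 4026 to 4950 CPM in lung ∆Foxp3. Of these 10, 7 fell and 1 rose in spleen, and 5 fell and 1 rose in lung, against 26.6% and 20.2% of all tested genes called.

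Over the 12 libraries, the genes whose log2(CPM + 1) followed Il4 most closely among 8503 genes with a mean of at least 10 CPM were Rbpj (Pearson r = 0.99), Tnfsf8, the CD30 ligand gene (0.98), Rad50 (0.98) and Chsy1, a chondroitin synthase gene (0.97). The genes closest to Gata3 were Samsn1 (0.95), Furin, a proprotein convertase gene (0.94), Dennd5a (0.94) and Tmem109 (0.93). Those closest to Pparg were Ttc39b (0.96), Got1, the cytosolic aspartate aminotransferase gene (0.96), Cysltr1 (0.95) and Kif3a (0.95). These values are descriptions, since the 12 points share their genotype groups, and Il4 is at 0 in 6 of them.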

How the data were processed

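The authors deposited raw gene counts for 12 libraries of 1000 sorted cells, amplified with 18 PCR cycles and read as paired 38 nt ends. Per the submitters' processing notes, reads went through STAR (2.7.3a) and featureCounts of Subread (2.0.0) with build mm10. No source used here gives their settings, annotation or strand option. Totals ran from 3958892 to 9025150 counts.

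Counts were filtered with filterByExpr, scaled by TMM and fitted over all 4 groups with edgeR 4.0.16 in R 4.3.3 (robust quasi-likelihood F test). P-values were adjusted by Benjamini-Hochberg over 13295 genes in each of 5 comparisons, and under 0.05 was called. Log2 values with ± are standard errors. Groups at 0 were set to 3 counts over the group, and groups with 1 to 3 counts were given as pooled ratios with an exact 95% interval. Alternatives were DESeq2 1.42.0, limma 3.58.1, other scalings and filters, fits of fewer groups, a replicate block, and leaving out libraries. On simulated data for the spleen comparison, with 12624 genes tested, 12 of 50 genes changed 2-fold were recovered and 43 of 50 changed 8-fold, with 6 false calls.

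Gene lengths and positions came from GENCODE vM21 (GRCm38). All 9 genes were named, and of each of 15 gene lists up to 4 called genes per genotype comparison by adjusted p, with the tested chromosome neighbours. The genes and lists were chosen with earlier results of these data known. Same-numbered replicates were not treated as pairs. None of the 12 pairs of libraries within a group agreed within counting noise.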

Additional observations from a re-analysis of the deposited data

Results flagged for a closer look

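The genotype difference differed between the tissues for 4 genes of the lists, by the test of that difference (edgeR interaction, Benjamini-Hochberg adjusted over all tested genes). Gata3, Stat6 and Pparg were not among them.

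Hilpda, a lipid droplet gene, rose more in lung, and its difference of 1.95 ± 0.33 (SE) on the log2 scale (adjusted p = 0.0121) held in all 20 alternatives. Its levels were 321, 322 and 462 CPM in the 3 lung ∆Foxp3 libraries and 74.3, 80.1 and 50.2 CPM in the spleen ∆Foxp3 libraries. Ccr8, the receptor for CCL1, also rose more in lung (1.71 ± 0.38, adjusted p = 0.0486), but this call was lost in 12 of 20 alternatives, with an adjusted p of up to 0.157 without lung WT 3.

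Tnf was lower in spleen ∆Foxp3 than in spleen WT (-1.61, adjusted p = 0.00706) and higher in lung ∆Foxp3 than in lung WT (1.36, 0.03), a difference of 2.97 ± 0.56 (0.0212). It was lost in 7 of 20 alternatives, up to 0.127 without the 3 libraries that stand apart. Nfil3, a transcription factor gene, differed by -3.19 ± 0.62 (0.0267), since it was low in spleen WT (1.58 CPM) and already 17.7 CPM in lung WT. This call was lost in 9 of 20 alternatives, up to 0.13 in limma. The allele difference between the ∆Foxp3 groups cannot be told apart from the tissue in any of the 4.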

How the results depend on the processing

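On simulated data for the spleen comparison, 12 of 50 genes changed 2-fold were recovered. The simulation changed a far smaller share of genes than the 26.6% called in the spleen data, which makes the adjustment of p-values stricter. The share recovered in the real comparison is therefore not known, and differences of that size can be missed with 3 libraries a group. Leaving out 1 library in turn gave 2710 to 3575 genes called in spleen (3540 with all libraries), 1457 to 3364 in lung (2686), 281 to 693 between tissues in WT (549), 42 to 152 between tissues in ∆Foxp3 (96) and 36 to 178 for the interaction (123). Over the members the same removals gave 2 to 6 called in spleen, 4 to 6 in lung, 0 to 0 between tissues in WT, 0 to 3 between tissues in ∆Foxp3 and 0 to 0 for the interaction. Fitting only the groups compared called 2287 genes and 2 members in spleen. In lung, limma called 4598 genes, and leaving out the 3 libraries that stand apart called 1321 genes and 3 members. Between tissues in WT, DESeq2 called 1046 genes, limma 1046 and no low-count filter 957, and DESeq2 and no filter called 1 member each. Between tissues in ∆Foxp3 the counts were 235, 228 and 292 genes, with 3 members in limma and 1 without the filter. For the interaction they were 301, 190 and 363. The cause was not tested. Fitting only the groups compared gives no interaction, and genes filtered out or left without an adjusted p by DESeq2 have no value there. The samples share only a replicate number: same-numbered libraries had correlations of -0.092 to 0.0955 in their deviations. With the replicate block 3314 genes were called in spleen, 2422 in lung, 511 and 83 between tissues and 74 for the interaction, and 4 members in spleen, 5 in lung and 0 elsewhere. Aff4 in spleen (0.01) changed sign, to -0.03 with library totals, -0.24 in limma and -0.05 without the 3 libraries, and ran from -0.23 to 0.19 when 1 library was left out (negative without spleen WT 1, spleen WT 2 or spleen ∆Foxp3 3). The interaction of Pparg (-0.48) ran from -0.85 to 0.09, which it reached without lung WT 1, and that of Stat6 (0.05) from -0.03, without spleen WT 2, to 0.16.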
